A study of Homo sapiens with 4 samples.

Results

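The regions described here are the places where ATF3, a bZIP transcription factor that cells induce under stress, was mapped within 20 kb of 6 genes of asparagine, serine and one-carbon synthesis: ASNS, PHGDH, PSAT1, PSPH, SHMT2 and MTHFD2. They came from CUT&Tag, in which an antibody brings a transposase to chromatin so that the DNA around the bound protein is cut and tagged. SW480 cells, an established human colorectal cancer line, were kept for 24 h in cystine-restricted medium (2 libraries) or in full medium (2 libraries), and all 4 libraries used the same ATF3 antibody. Cystine is the oxidised dimer of cysteine and its main supply to cells in culture. Peaks of the 4 deposited lists that shared at least 1 bp were merged, which gave 44826 regions on chromosomes 1 to 22 and X, and 23 of these lay in the windows of the 6 genes. The labels say only that the libraries of a medium are separate samples, so the p-values measure only the spread among these libraries, and that spread may be technical. The spread used for a region is drawn partly from other regions of like level, so it is not that of its own values alone. No library without the ATF3 antibody was used here.

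ASNS makes asparagine by moving the amide nitrogen of glutamine onto aspartate. PHGDH, PSAT1 and PSPH carry out, in that order, the oxidation, transamination and dephosphorylation by which cells make serine from a glycolytic intermediate. SHMT2 and MTHFD2 are mitochondrial enzymes that take a carbon unit from serine onto folate and pass it on through the folate pathway. These genes are known targets of ATF4, a bZIP relative of ATF3 that is translated when amino acids run short, and the promoter of ASNS carries the best studied element of this response, called the C/EBP-ATF response element.

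To show the DNA at the 5′ ends of these genes, the RefSeq promoter sequences (GRCh38.p14) are printed where the reference table holds one, which it does for 4 of the 6 genes. Each line holds the 250 bases before the start site, 5′ to 3′ on the strand of the gene, and capitals mark matches to the motifs searched. ASNS is at chr7:97872409-97872658 on the minus strand, PHGDH at chr1:119711684-119711933, PSAT1 at chr9:78296875-78297124 and MTHFD2 at chr2:74198365-74198614, all 3 on the plus strand. For ASNS, the upstream of the 2 listed start sites is shown.
ASNS: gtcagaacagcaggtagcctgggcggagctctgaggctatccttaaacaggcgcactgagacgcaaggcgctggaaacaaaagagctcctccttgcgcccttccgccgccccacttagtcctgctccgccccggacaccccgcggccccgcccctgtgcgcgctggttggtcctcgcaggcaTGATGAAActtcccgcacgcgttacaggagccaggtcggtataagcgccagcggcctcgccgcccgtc
PHGDH: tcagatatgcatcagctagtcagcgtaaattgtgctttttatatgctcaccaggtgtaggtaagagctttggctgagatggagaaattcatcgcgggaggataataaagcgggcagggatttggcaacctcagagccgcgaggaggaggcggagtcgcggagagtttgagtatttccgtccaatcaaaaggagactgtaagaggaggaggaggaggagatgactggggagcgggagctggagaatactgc
PSAT1: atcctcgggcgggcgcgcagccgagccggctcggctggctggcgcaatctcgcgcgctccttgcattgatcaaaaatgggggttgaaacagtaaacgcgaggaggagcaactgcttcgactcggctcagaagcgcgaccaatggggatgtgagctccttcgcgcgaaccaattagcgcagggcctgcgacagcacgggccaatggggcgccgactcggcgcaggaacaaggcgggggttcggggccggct
MTHFD2: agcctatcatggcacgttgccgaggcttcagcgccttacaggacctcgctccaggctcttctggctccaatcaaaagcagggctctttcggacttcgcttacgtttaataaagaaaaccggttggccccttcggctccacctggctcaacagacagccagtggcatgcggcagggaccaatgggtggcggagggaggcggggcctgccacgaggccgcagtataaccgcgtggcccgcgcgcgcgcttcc

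The letters searched, on both strands, were TGATGNAA (the C/EBP-ATF response element), TGACGTCA (the cAMP response element), TGACTCA (the AP-1 site) and TGACG (the core of the cAMP response element, which every TGACGTCA also contains). The ASNS promoter holds 1 TGATGNAA match, TGATGAAA, from 68 to 61 bases before the start site. Of all 35116 promoters in the table, each with 50 further bases after the start site, 3.62% hold a match to these letters. ASNS also has a TGACG match on the opposite strand that ends on the start site itself, one base past the printed window, and 24.6% of all promoters hold these 5 letters. TGACGTCA and TGACTCA, found in 1.85% and 4.95% of all promoters, had no match in the promoters of ASNS, PHGDH, PSAT1 or MTHFD2. These windows are in another build than the peaks (hg19), so the matches describe the promoters and were not placed under the summits.

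ATF3 peaks stood at or close to the 5′ end of 5 of the 6 gene spans in every library. A region covered the 5′ end of ASNS (chromosome 7, 97501012 to 97501997, hg19), PSAT1 (chromosome 9, 80911300 to 80912755), PSPH (chromosome 7, 56118844 to 56119751) and MTHFD2 (chromosome 2, 74425560 to 74426464), and at SHMT2 a region began 23 bp inside the span (chromosome 12, 57623379 to 57624759). The PHGDH span begins at a far upstream start, with its nearest summit 12153 bp away. A region inside this span (chromosome 1, 120254983 to 120256115) had its summits 31.0 to 31.5 kb before the 3′ end. The RefSeq gene model of PHGDH (GRCh38.p14) is 32282 bp long, but its start was not placed in hg19 here. If that model ends where the span ends, its start lies 32282 bp before the 3′ end, a little upstream of these summits. No annotation of hg19 was used here, so exons and introns are not given.

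Of the 23 regions, 13 had a peak in all 4 libraries, or 56.5%, against 23.0% of all 44826 regions. None was gained, meaning listed for both libraries of cystine restriction and for none of full medium, where 12.7% of all regions were. None was lost, the reverse case, where 0.386% were. The other 10 had a peak in 1 to 3 libraries and were of neither kind. The regions in all 4 libraries are called common regions below, and their counts were 1 at ASNS, 1 at PSAT1, 4 at PHGDH, 4 at PSPH, 2 at SHMT2 and 1 at MTHFD2. Common regions were wider at the 6 genes (median 1133 bp) than overall (median 888 bp).

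The cystine-restricted libraries listed 22 and 17 peaks at the 6 genes and the full-medium libraries 17 and 17, a ratio of the means of 1.15. Over chromosomes 1 to 22 and X the same ratio was 1.73. Cystine-restricted replicate 2 had as many peaks here as each full-medium library, so the excess came from replicate 1, and no test was made of it since 2 libraries against 2 allow no two-sided exact permutation p under 0.33.

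**Figure D1:**
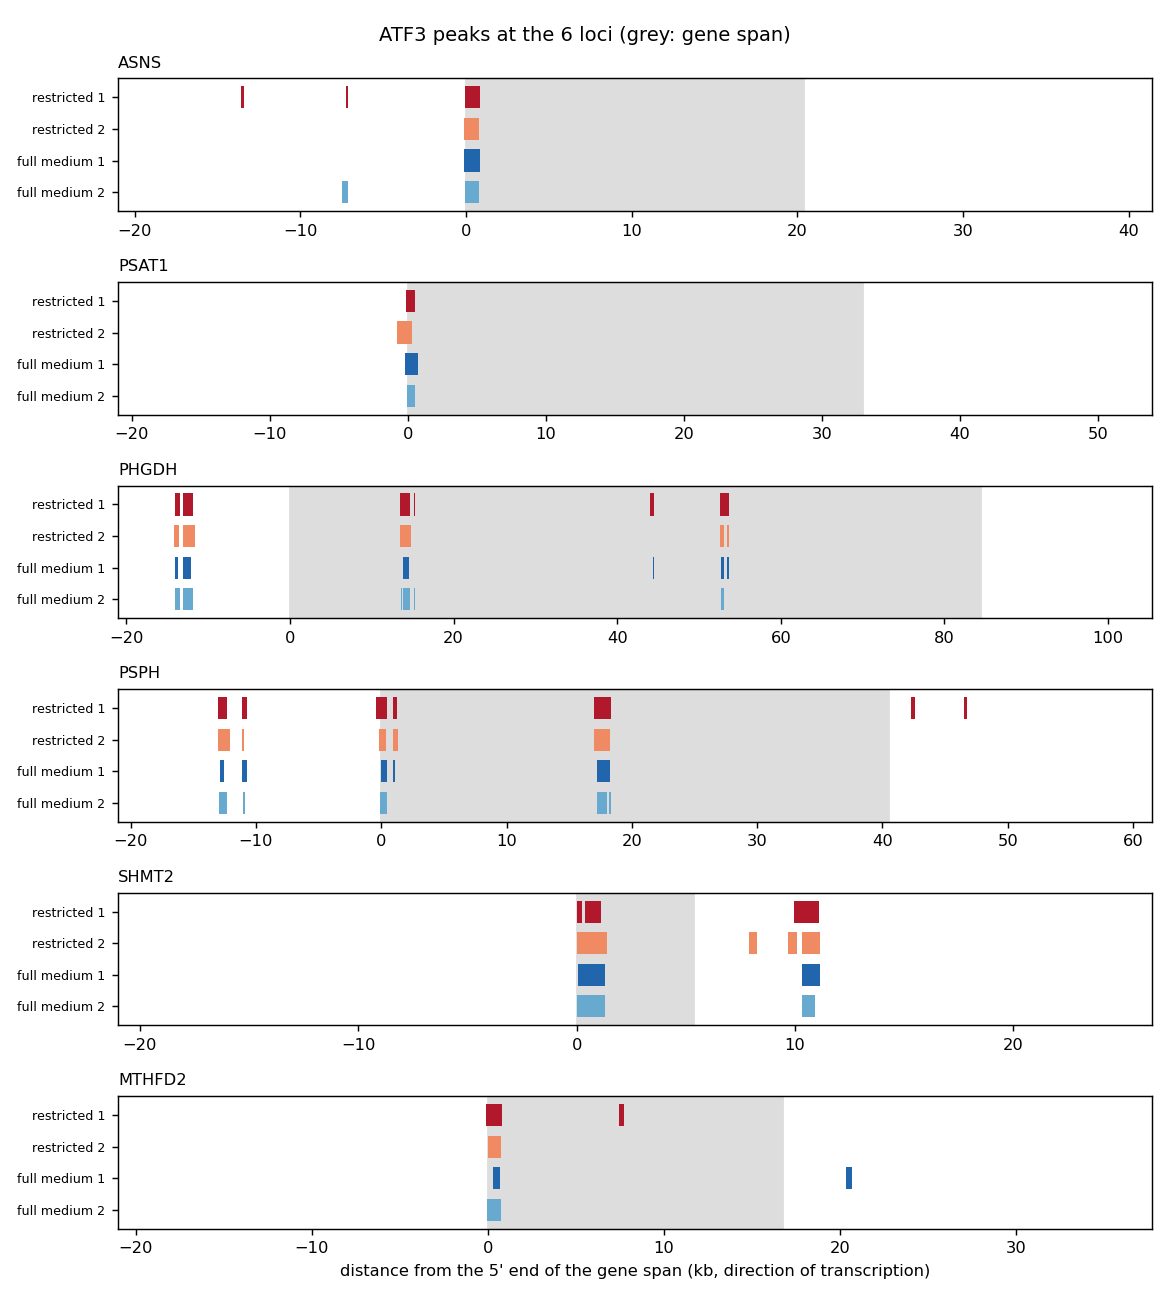
Peaks of each library (rows) around the 6 genes, as distance in kb from the 5′ end of the gene span in the direction of transcription; bars are peaks (drawn at least 0.15 kb wide) and grey is the gene span. Peaks at the 5′ end of ASNS, PSAT1, PSPH, SHMT2 and MTHFD2 stand in all 4 rows. The 10 regions missing from at least 1 library have bars in only some of the rows.

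The height of a peak is given as a level, the summit pileup divided by the genome background of its library. The pileup is the number of tags over the summit, recovered from the deposited fold and −log10 p, and the genome background is the pileup expected if tags were spread evenly. The genome background came to 1.30 and 1.08 tags under cystine restriction (replicates 1 and 2), against 1.11 and 1.32 tags in full medium (replicates 1 and 2). This corresponds to 19.5 to 23.7 M tags per library at an assumed genome size of 2.7 Gb and an assumed tag length of 150 bp. Over all 10331 common regions the median log2 change in level was 0.53, higher under cystine restriction. Changes are therefore given both as they stand and relative to the median of the common regions in each library.

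The region over the 5′ end of ASNS was among the strongest of each list and had nearly the same level in all 4 libraries. The level was 107.1 and 107.0 in cystine-restricted replicates 1 and 2, against 106.6 and 105.5 in full-medium replicates 1 and 2, from summit pileups of 139 and 116 tags against 118 and 139 tags. The 4 levels differed by less than their counting error, which for the first gives a 95% Poisson interval of 90.0 to 126.5. Its rank by −log10 p was 304 and 263 in the cystine-restricted lists, against 162 and 110 in the shorter full-medium lists, each time at or above the 99.1 percentile. The summits lay 30 to 67 bp inside the span, a spread of 37 bp.

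Against full medium the ASNS level changed by 0.01 on the log2 scale (SE 0.15, 95% interval −0.29 to 0.32, limma adjusted p = 0.95), and 870 of the 10331 common regions had a smaller change. The interval does not include the 0.53 by which the common regions as a whole were higher. Relative to the median of the common regions, ASNS was lower under cystine restriction by −0.55 (SE 0.13, adjusted p = 0.0021), as was a background of 4.28% of common regions. Leaving out full-medium replicate 1 or 2 gave −0.64 and −0.47, and neither change passed the threshold. Leaving out cystine-restricted replicate 1 or 2 gave −0.52 and −0.59. Each of these fits has only 1 library in a medium. Among the tenth of common regions with the highest levels, to which ASNS belongs, the median change was 0.53.

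SHMT2 showed a similar picture. Its region just inside the span had a level of 83.2 and 78.4 in cystine-restricted replicates 1 and 2, against 80.4 and 85.7 in full-medium replicates 1 and 2. The 2 media overlap, and the change was −0.04 (SE 0.17, 95% interval −0.37 to 0.29, limma adjusted p = 0.85). Relative to the median of the common regions it was −0.61 (SE 0.14, adjusted p = 0.0026). Without full-medium replicate 1 or 2 this relative change was −0.75 and −0.47, with limma adjusted p of 0.13 and 0.22. The summits of the highest peaks lay 530 to 562 bp inside the span. Cystine-restricted replicate 1 listed 2 peaks in this region, with 53 and 108 tags, and the level uses the higher one. With all pileups of the region summed, the change was 0.25 (limma adjusted p = 0.42).

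A second common region stood 10.5 kb from the 5′ end of SHMT2, past its 3′ end and on the side of the RefSeq neighbour COXFA4L2, also named NDUFA4L2. Its level was 45.5 and 36.0 in cystine-restricted replicates 1 and 2, against 43.4 and 32.6 in full-medium replicates 1 and 2. The media overlapped, and in both the first replicate was the higher one. The change was 0.10 (SE 0.22, limma adjusted p = 0.70), and −0.46 relative to the median of the common regions (limma adjusted p = 0.13). Cystine-restricted replicate 2 listed 2 peaks in this region. With all its pileups summed, the change was 0.58 (limma adjusted p = 0.15).

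MTHFD2 had a weaker region over its 5′ end. The level was 16.95 and 22.1 in cystine-restricted replicates 1 and 2, against 17.2 and 19.7 in full-medium replicates 1 and 2. The full-medium values lie between the cystine-restricted ones, and the change was 0.07 (SE 0.28, 95% interval −0.48 to 0.63, limma adjusted p = 0.83). That interval includes both no change and the shift of the common regions as a whole. It was −0.49 relative to the median of the common regions (limma adjusted p = 0.27). The summits were spread over 582 bp, from 45 to 627 bp inside the span.

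PHGDH, of the serine synthesis genes, had common regions that rose, as 43.2% of all common regions did. The region 53.0 kb into its span had a level of 32.4 and 28.6 in cystine-restricted replicates 1 and 2, against 20.8 and 17.4 in full-medium replicates 1 and 2. Both cystine-restricted values were above both full-medium values, and the level rose by 0.68 (SE 0.25, limma adjusted p = 0.029), a fold of 1.60. The summits of the highest peak of each library lay within 66 bp of each other.

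The other common regions of PHGDH were 1 inside the span and 2 upstream of it. The region 14.0 kb into the span (chromosome 1, 120215899 to 120217189) had a level of 44.7 and 45.2 in cystine-restricted replicates 1 and 2, against 30.7 and 26.6 in full-medium replicates 1 and 2. The strongest of the PHGDH regions by its lowest rank percentile, 88.0, it rose by 0.65 (SE 0.22, limma adjusted p = 0.015). The summits of its highest peaks were spread over 476 bp, and full-medium replicate 2 listed 2 peaks in it. With all pileups of the region summed, the rise was 0.35 (limma adjusted p = 0.29). The remaining 2 regions lay in the upstream flank, on the side of the RefSeq neighbour ZNF697, a zinc-finger gene.

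The nearer of these flank regions, 12.8 kb upstream of the span (chromosome 1, 120189343 to 120190801), had a level of 29.3 and 32.3 in cystine-restricted replicates 1 and 2, against 21.7 and 18.2 in full-medium replicates 1 and 2. It rose by 0.63 (SE 0.25, limma adjusted p = 0.039), and the summits of its highest peaks were spread over 793 bp. The farther one, 13.7 kb upstream (chromosome 1, 120188211 to 120189031), had 43.9 and 44.3 in cystine-restricted replicates 1 and 2, against 39.8 and 25.8 in full-medium replicates 1 and 2. It did not pass the threshold, with a change of 0.46 (SE 0.22, limma adjusted p = 0.084), and the full-medium libraries differed from each other by 0.62 on the log2 scale. Without full-medium replicate 1 its change was 0.77 (limma adjusted p = 0.0052), and without full-medium replicate 2 it was 0.15 (limma adjusted p = 0.65). Relative to the median of the common regions, the 4 PHGDH changes lay between −0.11 and 0.11, with limma adjusted p of 0.81 to 0.92.

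PSAT1 had a single region in its whole window, over the 5′ end, and it had the lowest mean level of the regions at the 5′ ends in both media, although in full-medium replicate 1 the PSPH 5′ end was lower. The level was 16.2 and 14.8 in cystine-restricted replicates 1 and 2, against 15.4 and 9.86 in full-medium replicates 1 and 2. Full-medium replicate 1 lies between the cystine-restricted libraries, and the change of 0.33 (SE 0.30, 95% interval −0.27 to 0.93, limma adjusted p = 0.36) was within the spread between libraries. It was 0.65 without full-medium replicate 1 and 0.0085 without full-medium replicate 2, and −0.24 relative to the median of the common regions (limma adjusted p = 0.68). The summit pileups behind it were 13 to 21 tags, and the lowest gives a 95% Poisson interval of 5.25 to 16.9 on the level.

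PSPH had 7 regions, the most of the 6 genes. The region over its 5′ end had a level of 24.7 and 18.5 in cystine-restricted replicates 1 and 2, against 13.6 and 19.0 in full-medium replicates 1 and 2. The media overlapped and the change was 0.41 (SE 0.28, limma adjusted p = 0.22). Set against the median of the common regions it was −0.16 (limma adjusted p = 0.80). CCT6A, a subunit of a chaperonin, and then SUMF2, a sulfatase modifying factor, are the next RefSeq genes on this side.

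The strongest region at PSPH lay 17.6 kb into the span (chromosome 7, 56100949 to 56102326). Its level was 135.6 and 121.8 in cystine-restricted replicates 1 and 2, against 116.6 and 92.6 in full-medium replicates 1 and 2, and the summits of the highest peak of each library fell within 2 bp of each other. In full-medium replicate 2 it was below the ASNS 5′ end, and in the other libraries above it. Both cystine-restricted values were higher than both full-medium ones, but the change of 0.31 (SE 0.15, limma adjusted p = 0.097) did not pass the threshold. Without full-medium replicate 1 it did, at 0.47 (limma adjusted p = 0.0057), and without full-medium replicate 2 the change was 0.14 (limma adjusted p = 0.49). With all libraries it was −0.26 relative to the median of the common regions (limma adjusted p = 0.20). RefSeq lists a pseudogene of this gene, PSPHP1, on the same chromosome, and how reads matching both were placed is not given in the sources used here.

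Both upstream flank regions of PSPH, on the side of CCT6A and SUMF2, rose. The region 12.7 kb upstream (chromosome 7, 56131345 to 56132309) had a level of 37.0 and 33.2 in cystine-restricted replicates 1 and 2, against 16.3 and 18.2 in full-medium replicates 1 and 2. Its change was the highest of the 13 at 1.03 (SE 0.25, 95% interval 0.52 to 1.53, limma adjusted p = 0.0013), a fold of 2.04. The region 11.0 kb upstream had 21.6 and 20.3 in cystine-restricted replicates 1 and 2, against 14.5 and 10.6 in full-medium replicates 1 and 2, and rose by 0.76 (SE 0.29, limma adjusted p = 0.031). Relative to the median of the common regions these changes were 0.46 and 0.19, with limma adjusted p of 0.24 and 0.75. The full-medium peaks of the region 11.0 kb upstream were weak, with 16 and 14 tags in replicates 1 and 2. Their rank percentiles were 28.6 and 6.99.

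**Figure D2:**
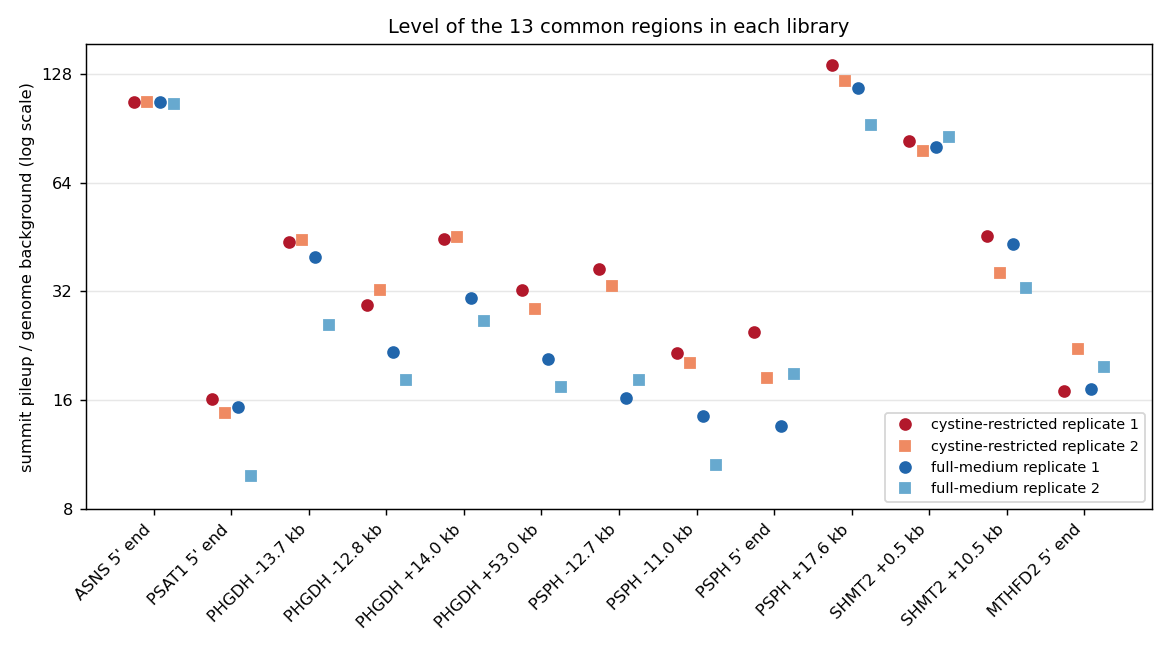
Level (summit pileup over genome background, log scale) of the 13 common regions in each library; circles are replicate 1 and squares replicate 2, red shades cystine restriction and blue shades full medium, and names give the distance of the median summit from the 5′ end of the span. The 4 points of the ASNS 5′ end nearly coincide near 107. Both red points stand above both blue ones in 8 of the 13 regions, against 72.8% of all common regions. Among these 8 are PHGDH at +14.0 and +53.0 kb and PSPH at −12.7 kb.

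Taking the 13 common regions as a list, 5 rose, none fell and 8 did not pass the limma threshold of 0.05, where 43.2% of all common regions rose and 0.407% fell. The list median was 0.41 on the log2 scale, against 0.53 over all common regions. In 8 of the 13, both cystine-restricted libraries were above both full-medium libraries, and 72.8% of all common regions showed this. Relative to the median of the common regions none was higher and 2 were lower, ASNS and SHMT2, where 4.96% of all common regions were higher and 4.28% lower. On that scale the calls over all regions split into 512 higher and 442 lower, against 4461 higher and 42 lower on the genome background scale. All 5 regions that rose were at PHGDH or in the flank of PSPH, and 4 of them, all but the one 12.7 kb upstream of PSPH, no longer passed when cystine-restricted replicate 1, cystine-restricted replicate 2 or full-medium replicate 2 was left out (limma adjusted p 0.067 to 0.22), which left 1 call in each case. The same 4 did not pass when all pileups of a region were summed.

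**Figure D3:**
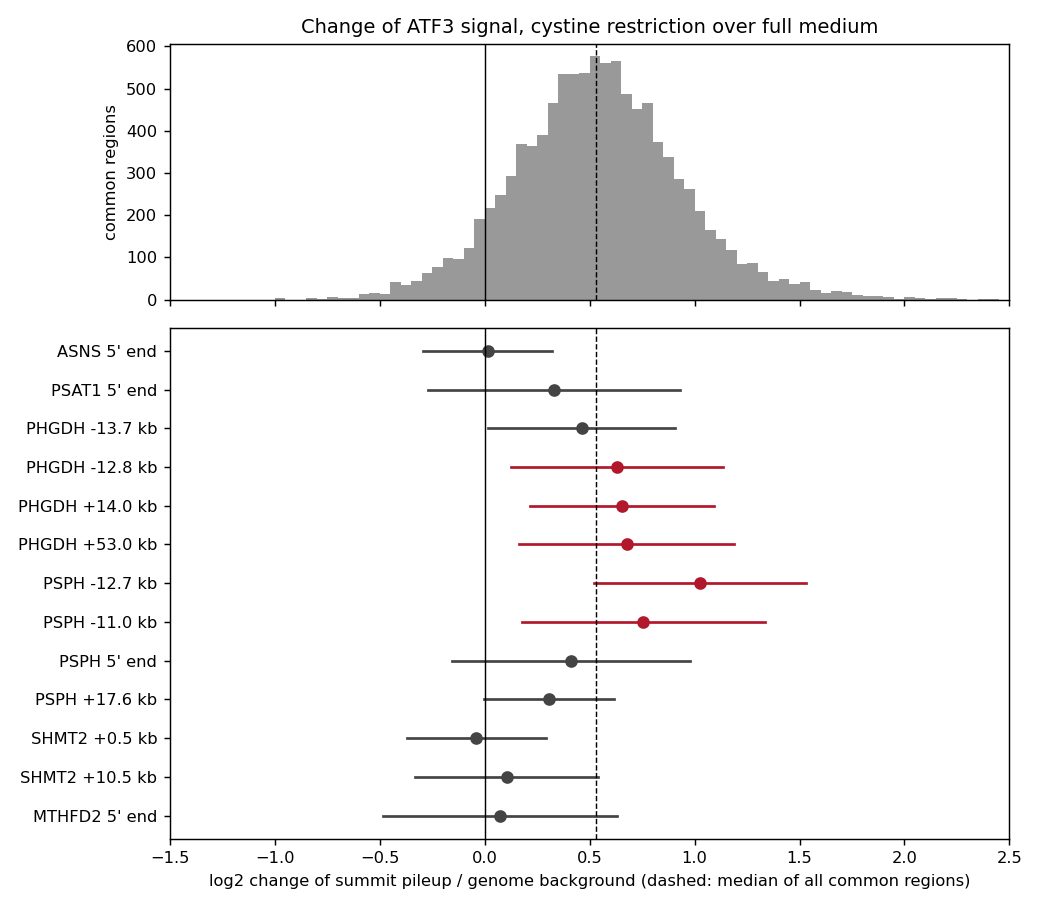
Top, the number of common regions by their log2 change, cystine restriction over full medium; bottom, the change of each of the 13 common regions at the 6 genes with its 95% limma interval, red where the adjusted p was under 0.05. The solid line is no change and the dashed line the median of all common regions, 0.53; the intervals of the ASNS 5′ end and of SHMT2 at +0.5 kb lie wholly left of the dashed line.

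By level, the regions over or just inside the 5′ ends fell into a strong and a weak set. Under cystine restriction ASNS averaged 107.1 ± 0.06 and SHMT2 80.8 ± 3.4, against 106.0 ± 0.84 and 83.1 ± 3.7 in full medium (SD, n = 2 each). PHGDH had no region at the 5′ end of the far upstream span used here and is in neither set. Whether its region 53.0 kb inside stands at the start of the shorter RefSeq model was not tested. The PHGDH region nearest to the 5′ end of the span, 12.8 kb upstream, averaged 30.8 ± 2.1 under cystine restriction and 19.9 ± 2.5 in full medium (SD, n = 2 each). The PHGDH region 53.0 kb inside averaged 30.5 ± 2.7 under cystine restriction and 19.1 ± 2.4 in full medium (SD, n = 2 each). Among the weak set, PSPH, MTHFD2 and PSAT1 averaged 21.6 ± 4.4, 19.5 ± 3.7 and 15.5 ± 1.0 under cystine restriction, and 16.3 ± 3.8, 18.4 ± 1.8 and 12.6 ± 3.9 in full medium (SD, n = 2 each). In full medium MTHFD2, PSPH and PSAT1 did not differ from their neighbours in this order beyond their spread. Under cystine restriction the same held for PSPH and MTHFD2, while the lower MTHFD2 library, at 16.95, was just above the higher PSAT1 library, at 16.2.

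The tag density in 10 kb around each summit, which the caller uses as local background, gave a further readout that includes the tags of the peak itself. It is given over the genome background and was added after the data were seen. At ASNS it was 6.31 and 6.07 in cystine-restricted replicates 1 and 2, against 6.98 and 6.45 in full-medium replicates 1 and 2, a change of −0.12 on the log2 scale (SE 0.09, limma adjusted p = 0.33). SHMT2 just inside its span had 7.63 and 6.67 in cystine-restricted replicates 1 and 2, against 7.82 and 8.07 in full-medium replicates 1 and 2, a change of −0.16 (SE 0.10, limma adjusted p = 0.25). These were the only 2 of the 13 common regions below 0 on this measure. The other 11 (84.6%) were above 0, against 90.6% of all common regions, whose median was 0.37.

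The surroundings of PHGDH and of the PSPH flank rose on the same measure. At the PHGDH region 14.0 kb into the span the density was 4.33 and 3.79 in cystine-restricted replicates 1 and 2, against 2.93 and 2.42 in full-medium replicates 1 and 2, a rise of 0.61 (SE 0.15, limma adjusted p = 0.033). At the PSPH region 12.7 kb upstream it was 4.13 and 3.78 in cystine-restricted replicates 1 and 2, against 2.72 and 2.81 in full-medium replicates 1 and 2, a rise of 0.51 (SE 0.12, limma adjusted p = 0.027). In all, 5 of the 13 rose and none fell, where 37.0% of all common regions rose and 0.445% fell. The 10 kb windows of the 2 upstream regions of PHGDH overlap, as do those of the 2 upstream regions of PSPH, so these calls are not separate measurements. The PHGDH region 53.0 kb into the span, whose summit level rose, did not pass on this measure (0.33, SE 0.19, limma adjusted p = 0.22).

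The 10 regions missing from some libraries had low pileups. Of these, 6 had a peak in 1 library, 3 in 2 and 1 in 3. Cystine-restricted replicates 1 and 2 listed 8 and 2 of them, and full-medium replicates 1 and 2 listed 3 and 2. Their summit pileups were 8 to 30 tags and their rank percentiles within a list ranged from 2.59 to 76.0. A peak that is not listed did not meet the criteria of the caller in that library, which does not measure an absence of ATF3.

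Among them, the ASNS region 7.2 kb upstream of the span was listed with 15 tags in cystine-restricted replicate 1 and 18 tags in full-medium replicate 2. These libraries have the highest genome background, and they were also those that listed the PHGDH region 15.2 kb into the span, with 29 and 19 tags. The PSPH region 1.0 kb into the span was listed with 19 and 17 tags for cystine-restricted replicates 1 and 2, and with 18 tags for full-medium replicate 1. The part that depth plays in these lists was not tested.

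The region farthest out inside a window was 13.4 kb from the ASNS span and had a peak in 1 library. The nearest one left outside was 22.4 kb from the PSPH span and also had a peak in 1 library.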

How the data were processed

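ATF3 CUT&Tag peak lists of 4 SW480 libraries were used, 2 per medium. The submitters' processing notes name MACS2 2.2.7.1 (peak calling), BWA 0.7.17 (alignment), fastp 0.19.7 and bcl2fastq 2.17, with build hg19. Which options the caller ran with is not stated there. The deposited lists, called per library, give each peak a fold enrichment (ratio), a −log10 p, a −log10 q (lowest 1.30, a q of 0.05) and a score of 10 times the −log10 q. These are the authors' values and were used only within a list.

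Summit pileups were recovered from the deposited fold and −log10 p as the whole number that gives both, which matched within 0.1% for 100% of peaks in each library and was tested on simulated data. The lowest local background of a list is its genome background. Gene spans and the 20 kb window were given in hg19, and strands follow RefSeq for the genes with a promoter there and general knowledge for PSPH and SHMT2. The log2 level at the 10331 common regions was fitted with limma 3.58.1 (R 4.3.3, trend, Benjamini-Hochberg adjustment over all 10331, also tested on simulated data), with the highest peak standing for a region. Other steps ran in Python 3.11.15 with pandas 2.3.3, scipy 1.17.1 and numpy 2.4.6. The named regions are those nearest each 5′ end, the strongest at each gene and the remaining common ones. The genes, lists and tests were chosen with earlier results of these data known. Alternatives tried were a stricter list (−log10 q from 5 up), equal numbers of top peaks, a reciprocal overlap of 50%, windows of 5 and 50 kb, centring, summed pileups, no trend, a replicate block and leaving out each library; centred fits with a block or without a library, and the local tag density, were added after the data were seen. Further genes of the pathway were not run, since no hg19 annotation was used.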

Additional observations from a re-analysis of the deposited data

How the results depend on the processing

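Centring each library on the common regions changed most: the median of the 13 fell to −0.16, with 0 higher and 2 lower, and over all common regions 512 were higher and 442 lower. Changes that turned negative on it were −0.55 at the ASNS 5′ end, −0.24 at PSAT1, −0.11 at PHGDH −13.7 kb, −0.16 at the PSPH 5′ end, −0.26 at PSPH +17.6 kb, −0.46 at SHMT2 +10.5 kb and −0.49 at MTHFD2. Summed pileups left 1 of the 13 higher, with 1603 higher and 16 lower in all, and gave 0.25 at SHMT2 +0.5 kb. A fit without a trend left 16 lower in all, and a 5 kb window left 2 of its regions higher. A −log10 q of at least 5 gave 1 gained region, or 5%, against 16.2% of all regions under that setting. This was PSPH −11.0 kb, whose −log10 q was 4.45 and 2.31 in full-medium replicates 1 and 2. A reciprocal overlap of 50% also gave 1 (2.94%, against 8.78% of all regions), as did a 50 kb window (3.03%, against 12.7%). In each case the gained share at these genes was below that of all regions, but it rests on 1 region. These settings reuse the same peak lists and are not separate evidence. The 50 kb window also moved the ratio of peak numbers to 1.39.

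Leaving out each library in turn gave 0 to 4 gained and 0 to 1 lost regions (7691 to 15954 and 369 to 2838 over all regions), a median of 0.17 to 0.65 and 1 to 7 higher among the 13, where the 7 came without full-medium replicate 1. Over all common regions it gave 1868 to 4913 higher and 12 to 44 lower, the lowest without cystine-restricted replicate 1. The ranges that cross 0 were −0.086 to 0.0062 at SHMT2 +0.5 kb, −0.10 to 0.31 at SHMT2 +10.5 kb and −0.12 to 0.27 at MTHFD2. On the centred scale they were −0.33 to 0.11 at PHGDH −13.7 kb, −0.040 to 0.16 at PHGDH −12.8 kb and −0.49 to 0.18 at the PSPH 5′ end, and 0 to 2 of the 13 were lower. A lone library of a medium was assumed to vary like the others.

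Same-numbered libraries share only a number (correlation of their deviations 0.01). With the replicate block 5 of the 13 were higher and 0 lower, as without it, and no call at the 13 changed. Within pair 1, 6 of 22 regions were gained (54.9% of all regions) and 1 lost (7.51%), and within pair 2, 4 of 19 were gained (45.9%) and 2 lost (13.4%). Among alternatives for single regions, 133 kept direction and call, 25 lost a call, 3 gained one in the same direction and 18 changed direction, among them the centred ASNS change, which also gained a call. Weak peaks rest on as few as 6 tags, which limits what a missing peak shows.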
